A study of Homo sapiens with 6 samples.

Results

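The SR proteins and hnRNPs are the RNA-binding proteins that decide, together with the spliceosome, which exons of a pre-mRNA are kept. Members were the protein-coding genes named SRSF followed by a number, HNRNP followed by any suffix, TRA2A, TRA2B, PTBP1 to PTBP3 or CLK1 to CLK4. The rule matched 173 symbols. It left 48 members of 60616 gene identifiers once 123 pseudogenes and 2 antisense genes had been dropped. The members comprised 12 SRSF genes, the TRA2 pair, the 3 PTBP genes, 4 CLK kinases, 9 hnRNPs of the A/B and D groups and 18 other HNRNP genes.

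RNA was sequenced from 12Z cells, an immortalized human cell line derived from endometriotic tissue, which is endometrium-like tissue growing outside the uterus. Both groups grew in medium with 10% charcoal-stripped serum and received DMSO for 12 h. In 3 libraries the DMSO carried frankincense extract at 70 ug/mL, a preparation of Boswellia resin; the other 3 were the vehicle controls. 12Z is a single line, and no source used here says that the libraries came from separate cultures. The spread behind every p-value is thus that between these libraries, and may be technical.

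SR proteins carry arginine-serine repeats, bind exonic enhancers and help recruit the spliceosome to nearby splice sites. CLK kinases phosphorylate these repeats in the nucleus. The hnRNPs coat nascent transcripts and often oppose SR proteins by silencing exons. Many of these genes limit their own level through poison exons or retained introns that send part of their RNA to nonsense-mediated decay. In the GENCODE 29 annotation 32 of the 48 members had a transcript of the nonsense-mediated decay type and 29 had one with a retained intron.

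The libraries held 22615150 to 27615196 expected counts, so that 3 counts in a library equalled 0.109 to 0.133 CPM, counts scaled to a constant library size,, a limit covering counting error only. The third frankincense library stood apart: counts differed from the other frankincense libraries with a chi-square per degree of freedom of 11.9 and 13.8, against 3.83 to 4.42 for every other pair within a group. Of the epithelial markers KRT8 was at 766 to 779 TPM, an abundance that allows for gene length, in vehicle libraries and CDH1 at 0.07 to 0.23, while the stromal marker VIM was at 2017 to 2096. The endothelial marker CDH5 and the T-cell marker CD3E were listed at 0 in all libraries. The markers also moved with treatment. Of 6 epithelial markers, KRT8, KRT18 and KRT19 fell by 0.42, 0.42 and 0.58 on the log2 count scale, and KRT7 and EPCAM rose by 0.94 and 0.72. The markers that rose were low, with vehicle means of 2.35 CPM for KRT7 and 1.12 for EPCAM, against 1089 for KRT8. Of 5 stromal markers, DCN, COL1A1, PDGFRB and VIM fell by 1.76, 1.36, 1.04 and 0.30, and CDH2 rose by 0.28. The epithelial list summed to 1574 to 1604 TPM in vehicle and 1361 to 1419 in frankincense libraries. The stromal list summed to 3665 to 3737 and 2723 to 2908 TPM. The endothelial sum was at most 0.27 in any library; the immune sum, almost wholly CD68, was 28.2 to 30.9 and 34.6 to 63.7. Their part in the member changes was not tested. In bulk RNA, fewer cells of a type and less RNA per cell cannot be told apart.

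Many members fell moderately with frankincense, and a smaller set rose. Of 44 members tested, 25 fell and 6 rose at an adjusted p under 0.05, which is what "called" means here. The p came from the quasi-likelihood test of edgeR, adjusted by the Benjamini-Hochberg method over all 16719 genes. The 31 calls are 70.5% of the tested members, against 62.9% of all genes tested, so the share called was near the background. The split was less even than over all genes. Lower calls made up 56.8% of tested members against 31.0% of all genes, and higher calls 13.6% against 31.9%. The median log2 fold change was -0.16 for the members and -0.0016 for all genes. Members not called numbered 13.

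The scale matters for this split. On log2(TPM + 1), where the median of all genes was itself shifted upward by 0.20, 16 members were called higher and 12 lower, beside 44.2% of all genes higher and 14.9% lower (59.1% in either direction). A further setting, median-scaled TPM, was added after seeing the data. It divided each library by a size factor, the median over genes of the ratio to their geometric mean across libraries. Median-scaled TPM gave 5 higher and 22 lower. Under all 7 scalings tried, 12 members were called lower, namely HNRNPM, HNRNPA1L3, CLK2, HNRNPA1, HNRNPUL1, HNRNPH3, HNRNPA2B1, HNRNPH1, SRSF3, SRSF5, HNRNPD and SRSF1. The same 12 stayed called lower when each library was left out in turn. PTBP3, HNRNPA1L2, SRSF8 and SRSF12 were called higher under all 7.

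**Figure D1:**
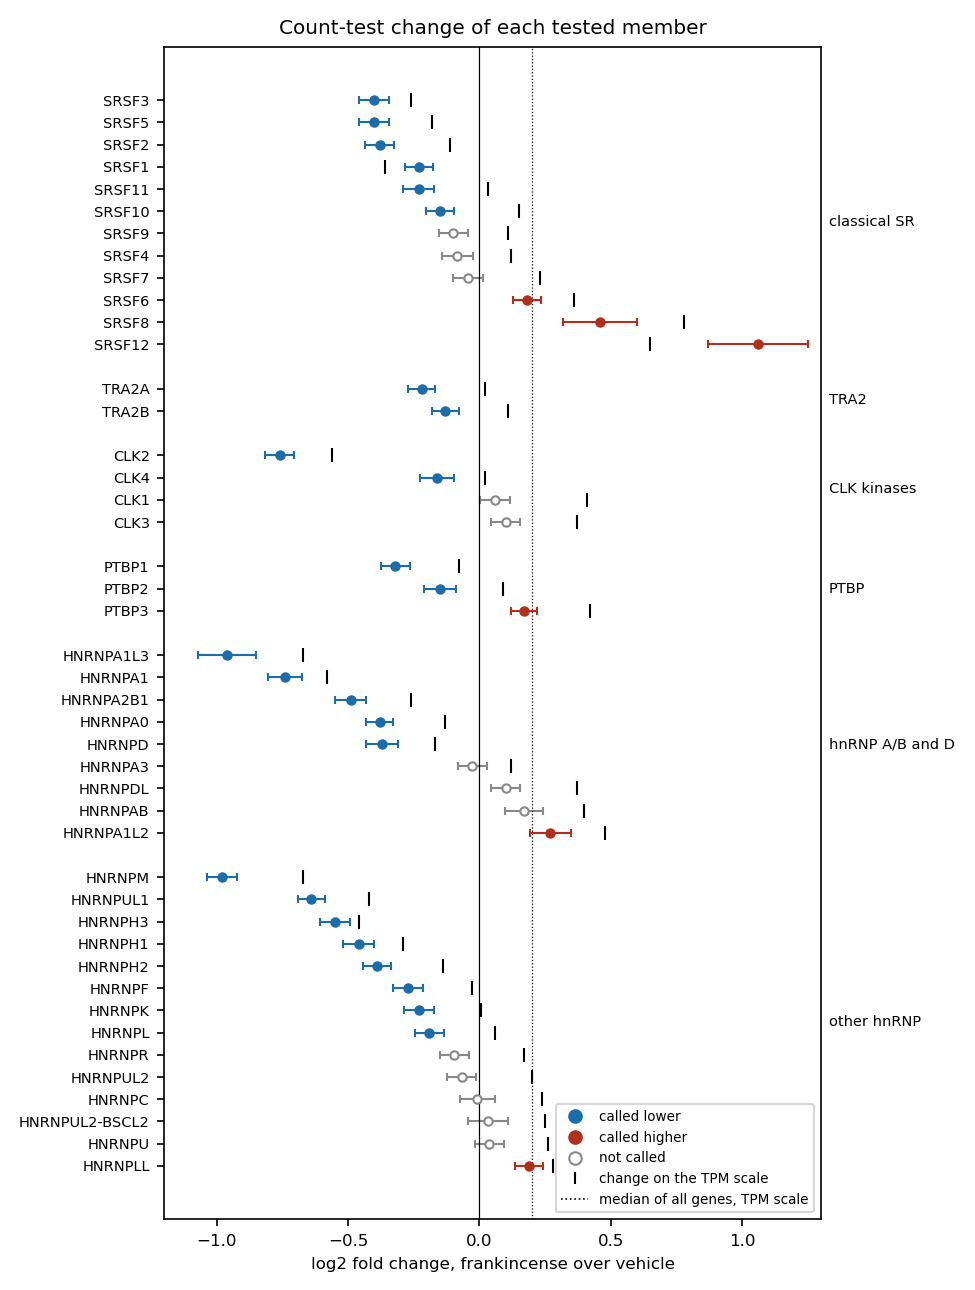
Log2 fold change of frankincense over vehicle for the 44 tested members by role; circles with bars show the edgeR fit with its SE, short vertical ticks the change on log2(TPM + 1), and the dotted line the median of all genes on that TPM scale, 0.20. HNRNPM lies farthest to the left of the circles at -0.98 and SRSF12 farthest to the right at 1.06, and most ticks lie right of their circle by about the shift of all genes.

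Compared per length, on the TPM scale, HNRNPA1 was the most abundant member in vehicle cells at 1474 ± 47.2 TPM (SD, n = 3). HNRNPA2B1 followed at 864 ± 26.9 and HNRNPC at 826 ± 22.8, a pair whose mean and SD ranges overlapped. HNRNPH1 came next at 652 ± 14.4 and then HNRNPK at 546 ± 31.2. With frankincense HNRNPA1 stood at 988 ± 37.9 TPM and HNRNPC at 976 ± 15.1, so that these no longer differed beyond their spread. Summed over all members, the level was 10412 ± 197 TPM in vehicle and 9843 ± 175 in frankincense libraries. Most of that difference lay in the A/B and D group, at 3547 ± 90.6 and 3037 ± 19.8 TPM. The SRSF genes summed to 2335 ± 20.3 and 2285 ± 76.1 TPM, values whose SD ranges overlapped.

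Among the SRSF genes 6 fell and 3 rose. SRSF3, the smallest classical SR protein and a regulator of both splicing and mRNA export, was at 283, 281 and 283 CPM in the vehicle libraries and at 215, 226 and 201 with frankincense. Its groups did not overlap, and its log2 fold change was -0.40 ± 0.057 (SE; adjusted p = 2.5e-05). SRSF5 was at 371, 384 and 355 CPM against 292, 273 and 277, a log2 fold change of -0.40 ± 0.057 (adjusted p = 2.6e-05). SRSF2, also known as SC35 and a component of nuclear speckles, was at 356, 370 and 349 CPM against 281, 279 and 268.

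SRSF2 thus fell by 0.38 on the log2 scale (SE 0.055, adjusted p = 3.1e-05), with no overlap between groups. The change of SRSF2 on log2(TPM + 1) was -0.11 with an adjusted p of 0.087. It shares 36.7% of its exonic bases with MFSD11 on the other strand, and because no stranded kit is stated the reads of that stretch cannot be assigned by strand. SRSF6, another enhancer-binding SR protein, went the other way. It was at 189, 197 and 186 CPM in vehicle and at 214, 216 and 220 in frankincense libraries, a log2 fold change of 0.18 ± 0.053 (adjusted p = 0.00697). On median-scaled TPM, SRSF6 was at 0.10 and not called (limma, adjusted p = 0.198).

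SRSF11 fell by 0.23 and SRSF10 by 0.15 on the log2 count scale; the SRSF10 call was lost without the second frankincense library or without vehicle library 1 or 3. SRSF4, SRSF7 and SRSF9 were not called, with log2 fold changes between -0.10 and -0.044. The other rises were in genes of low level. SRSF12 ranged from 1.25 to 1.27 CPM in vehicle and from 2.39 to 2.91 in frankincense libraries, and its log2 fold change of 1.06 ± 0.19 (adjusted p = 0.00022) was the only member change of at least 2-fold that was called. SRSF8, a retrocopy of SRSF2, rose by 0.46 ± 0.14 (adjusted p = 0.0126), and this call was lost without the first vehicle library.

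The TRA2 proteins are SR-like activators whose own genes contain poison exons. TRA2A was at 112, 108 and 108 CPM in vehicle and at 99.4, 90.8 and 91.3 in frankincense libraries. It fell by 0.22 on the log2 scale (SE 0.052, adjusted p = 0.00183). TRA2B was at 218, 231 and 227 CPM against 206, 207 and 203, and fell by 0.13 (SE 0.052, adjusted p = 0.04). The groups did not overlap for either gene. The TRA2B call was lost without any one library except the third frankincense library. Their changes on log2(TPM + 1) were 0.021 for TRA2A and 0.11 for TRA2B, neither called, both below the shift of all genes.

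The 4 CLK kinases did not move alike. CLK2 was at 142, 147 and 130 CPM in vehicle and at 84.8, 79.2 and 82.6 with frankincense, the clearest fall among the kinases. Its log2 fold change was -0.76 ± 0.056 (adjusted p = 2.9e-08), a 1.7-fold difference. CLK4 was at 28.4, 27.4 and 29.1 CPM against 26.6, 24.3 and 25.0, a log2 fold change of -0.16 ± 0.065 (adjusted p = 0.0432); this call was lost without any one library except the first frankincense library. CLK1, whose transcripts with retained introns are known to be stored in the nucleus and spliced on demand, was at 207, 194 and 197 CPM against 219, 200 and 204. Its groups overlapped and its log2 fold change of 0.058 ± 0.057 was not called (adjusted p = 0.392).

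CLK1 nevertheless read 116 ± 1.99 in vehicle and 155 ± 3.81 in frankincense libraries, in TPM. That is a change of 0.41 on log2(TPM + 1) and of 0.16 on median-scaled TPM (limma, adjusted p = 0.024). TPM divides by the estimated length of the gene, and the CLK1 length was 2276, 2161 and 2211 bases in vehicle libraries and 2125, 1965 and 2093 in frankincense libraries. These lengths did not overlap, but the log2 length ratio of -0.10 ± 0.038 was not called in the limma fit described with the lengths (adjusted p = 0.308). CLK3 was not called on counts, at 0.10 ± 0.055. It was called higher without the third frankincense library, at 0.15 (adjusted p = 0.00341), with library size scaling, at 0.18 (adjusted p = 0.00912), and on log2(TPM + 1), at 0.37.

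PTBP1, the polypyrimidine tract-binding protein that represses many alternative exons outside neurons, was at 393, 395 and 388 CPM in vehicle and at 324, 315 and 308 in frankincense libraries. It fell by 0.32 on the log2 scale (SE 0.054, adjusted p = 0.00013). PTBP2, the paralog best known from neurons, was at 42.1, 43.2 and 42.9 CPM against 40.2, 35.8 and 39.7, a log2 fold change of -0.15 ± 0.061 (adjusted p = 0.0479). The PTBP2 call was lost when the second frankincense library or any vehicle library was left out. PTBP3, the third paralog, was at 130, 122 and 130 CPM against 145, 139 and 146, and rose by 0.17 (SE 0.051, adjusted p = 0.00895). Without the second vehicle library the PTBP3 call was lost. PTBP1 and PTBP2 were thus called in one direction and PTBP3 in the other, on the count scale; on log2(TPM + 1) PTBP1 and PTBP2 were not called.

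**Figure D2:**
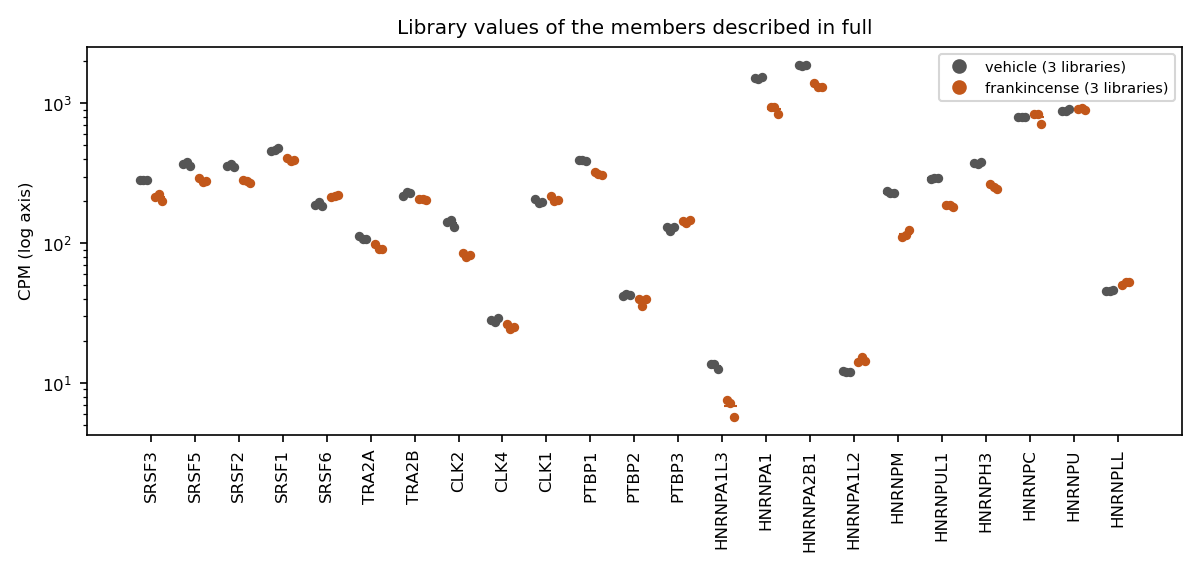
CPM on a log axis in each of the 3 vehicle and 3 frankincense libraries for the 23 members described with all library values, grouped by role; short lines are group means. The groups are separate for 20 of them and overlap for CLK1, HNRNPC and HNRNPU.

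The hnRNP A/B and D group held the most abundant members, and 5 of its 9 genes fell and 1 rose. These are 55.6% and 11.1%, beside 31.0% and 31.9% of all genes tested. The share called, 66.7%, was near the 62.9% of all genes. HNRNPA1, which represses exons by binding UAGG-like elements, was at 1508, 1497 and 1538 CPM in vehicle and at 947, 936 and 838 in frankincense libraries. Every frankincense library was below every vehicle library. The log2 fold change was -0.74 ± 0.063 (adjusted p = 1.2e-07), and it was -0.58 on log2(TPM + 1). HNRNPA2B1, its close relative, was at 1868, 1856 and 1893 CPM against 1395, 1311 and 1307, and fell by 0.49 (SE 0.058, adjusted p = 4.5e-06).

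HNRNPD, also known as AUF1 and a binder of AU-rich elements, fell by 0.37 on the log2 scale, and HNRNPA0 by 0.38. HNRNPA3, HNRNPAB and HNRNPDL were not called, at -0.027, 0.17 and 0.10. Without the third frankincense library HNRNPAB was called higher at 0.26 (adjusted p = 1e-05) and HNRNPDL at 0.12 (adjusted p = 0.0121). HNRNPAB was also called higher by DESeq2 (adjusted p = 0.0458), with library size scaling (0.00614) and with no low-count filter (0.0116). HNRNPDL was also called higher with library size scaling (0.0112). On log2(TPM + 1) HNRNPA3, HNRNPAB and HNRNPDL were called higher, at 0.12, 0.40 and 0.37, as were 44.2% of all genes. HNRNPA1L2 and HNRNPA1L3 are near-identical copies of HNRNPA1. None of their counts was a whole number in any library, meaning that reads were divided between similar genes, so both values are uncertain; the counts of HNRNPA1 were fractional in all 6 libraries too. HNRNPA1L3 was at 13.6, 13.7 and 12.7 CPM against 7.56, 7.21 and 5.7, a log2 fold change of -0.96 ± 0.11 (adjusted p = 1.9e-06). HNRNPA1L2 was at 12.3, 12.0 and 12.0 CPM against 14.2, 15.4 and 14.4, at 0.27 ± 0.078 (adjusted p = 0.00714).

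Of the other hnRNPs 14 were tested, 8 fell and 1 rose, or 57.1% and 7.14%, beside 31.0% and 31.9% of all genes tested. The share called, 64.3%, was near the 62.9% of all genes. HNRNPM, which promotes splice patterns of mesenchymal cells, had the largest called fall of any member. It was at 235, 229 and 228 CPM in vehicle and at 111, 114 and 124 in frankincense libraries. The log2 fold change was -0.98 ± 0.057 (adjusted p = 2.2e-09), a 1.98-fold difference, and it was -0.67 on log2(TPM + 1). HNRNPUL1, a relative of hnRNP U, was at 287, 292 and 294 CPM against 188, 189 and 183. It fell by 0.64 (SE 0.052, adjusted p = 7.5e-08).

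The H/F family binds G-rich elements. HNRNPH3 was at 372, 367 and 379 CPM in vehicle and at 265, 254 and 243 with frankincense, a log2 fold change of -0.55 ± 0.056 (adjusted p = 7.3e-07). The other 3 members of that family were called lower too, HNRNPH1 at -0.46, HNRNPH2 at -0.39 and HNRNPF at -0.27. Over all genes tested 31.0% were called lower. HNRNPH1 and HNRNPH3 were also called lower on log2(TPM + 1), at -0.29 and -0.46. HNRNPH2 and HNRNPF were not, at -0.14 and -0.027. Counts of HNRNPH1 and HNRNPH2 were fractional in all 6 libraries. HNRNPH2 shares 16.3% of its exonic bases on the same strand with RPL36A-HNRNPH2, a gene at a mean of 67.7 CPM. The part of read division in these falls was not tested. HNRNPK fell by 0.23 and HNRNPL by 0.19 on the count scale.

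HNRNPLL, a regulator of CD45 splicing in lymphocytes, was the member of this role that rose. Its values were 45.6, 45.4 and 46.2 CPM against 50.3, 53.1 and 52.7, with a log2 fold change of 0.19 ± 0.054 (adjusted p = 0.00741). On median-scaled TPM the change was 0.035 and not called.

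HNRNPC, which coats uridine tracts, was at 798, 801 and 794 CPM in vehicle and at 836, 833 and 712 in frankincense libraries. The third frankincense library was below all vehicle libraries and the others above them. Its log2 fold change was -0.0075 ± 0.067 (adjusted p = 0.93), and without the third frankincense library it was 0.075 and called higher (adjusted p = 0.0467). HNRNPU, which binds chromatin-associated RNA, was at 881, 879 and 910 CPM against 918, 925 and 896, a log2 fold change of 0.037 ± 0.055 (adjusted p = 0.582). HNRNPR, HNRNPUL2 and the readthrough gene HNRNPUL2-BSCL2 were not called, between -0.095 and 0.033. On log2(TPM + 1) HNRNPC, HNRNPU, HNRNPR and HNRNPUL2 were called higher, at 0.24, 0.26, 0.17 and 0.20, as were 44.2% of all genes. HNRNPCL1, HNRNPCL2, HNRNPCL3 and HNRNPCL4 had 0 counts in every library, which allows up to 3 counts in each.

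Library values of 34 members did not overlap between groups on the CPM scale; over all genes tested this held for 67.5%. Besides the 31 called members these were SRSF9, HNRNPDL and HNRNPR. Fractional counts, a sign that reads were divided between genes, occurred in 25 of the 48 members in at least 1 library, and 19 of the 44 tested members had whole counts throughout. Exons of 21 members overlapped those of another gene in GENCODE 29.

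The core promoters were searched because members of several families fell together. RefSeq promoter windows (GRCh38.p14) were found for 43 members, in 60 windows, of which the 250 bases before the transcription start were read. They were searched for 7 motifs, on both strands. The E-box CACGTG, which reads the same on both strands and to which MYC and USF family proteins can bind, was present in 9 of the 60 member windows, or 15%, and in 6.34% of all 35116 windows. These windows belonged to 8 members. Among them CLK2, HNRNPD, HNRNPH2, HNRNPH3 and HNRNPM were called lower, and HNRNPA3 and HNRNPDL were not called. Of all tested members 56.8% were called lower. A part of the E-box in these falls was not tested. The CCAAT box was in 43.3% of member windows and 32% of all windows, and the antioxidant response element TGACNNNGC in 16.7% and 10.9%. The other 4 were near or below the share of all windows. The ETS site CCGGAAG was in 8.33% of member windows and 8.52% of all, the TATA box TATAAA in 10% and 10.7%, the heat shock unit GAANNTTC in 6.67% and 5.78%, and the ATF4 and CHOP composite site TGATGNAAN in 0% and 3.13%. A match describes the letters of a window and does not show that a factor binds there. For 4 of the members that were called lower, 30 bases around the E-box are given 5′ to 3′ on the gene's strand, with the E-box in capitals, so that the flanking bases can be compared.
HNRNPM, chr19:8444921-8444950, plus strand: gttgcgtcgggtCACGTGggcgcgcaggcg
CLK2, chr1:155273559-155273588, minus strand: caactacgtgagCACGTGgtggcgcgcgcg
HNRNPH3, chr10:68331631-68331660, plus strand: tgccggtcgaacCACGTGgggccctttccg
HNRNPD, chr4:82374001-82374030, minus strand: gcgctctcgcgtCACGTGaccgggacgcgc

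The E-box began 42 bases before the start in HNRNPM, 72 in CLK2, 50 in HNRNPH3 and 27 in HNRNPD.

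Changes in transcript usage were read from the gene length that RSEM reports, the mean length of a gene's transcripts weighted by their estimated abundance in that library. It moves only when the estimated mix of transcripts moves. Log2 length was compared with limma, adjusted over 12189 genes. Of these, 165 genes or 1.35% were called, 34 longer (0.279%) and 131 shorter (1.07%). Of the 38 members tested, 1 was called, SRSF1, which became longer. SRSF12, HNRNPA0, HNRNPA1L2, HNRNPA1L3, HNRNPH2 and HNRNPUL2-BSCL2 passed the count filter but had no length test, either because the length did not vary between libraries or because TPM was under 1 in a group.

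**Figure D3:**
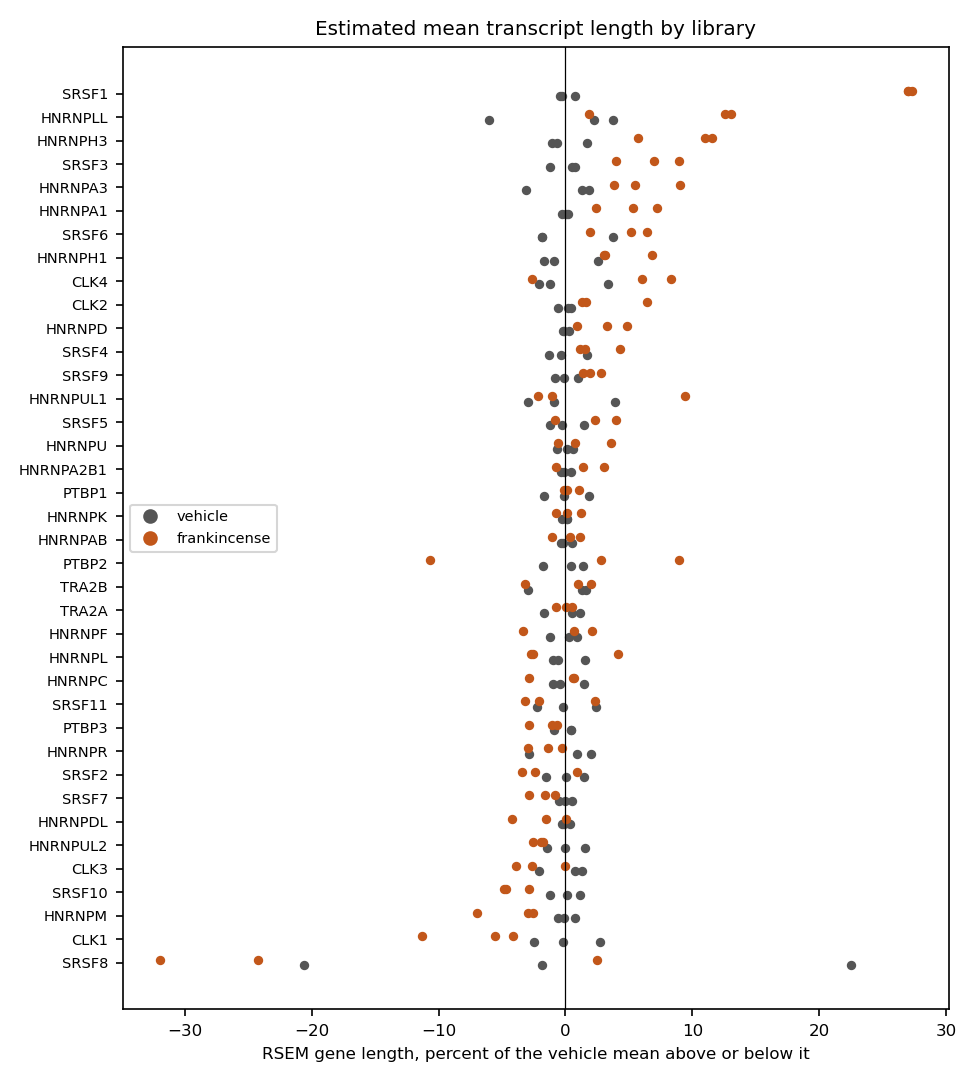
RSEM gene length in each library as percent above or below the vehicle mean, for the 38 members tested on length, ordered by the log2 length ratio. The 3 SRSF1 frankincense points lie far from its vehicle points and next to each other, while most other members have overlapping groups.

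SRSF1, also known as ASF/SF2, is the founding SR protein and regulates its own splicing. The gene lies on chromosome 17 (GRCh38, 58003360 to 58007346, minus strand). The estimated length was 2208, 2182 and 2186 bases in the vehicle libraries and 2790, 2783 and 2784 bases in the frankincense libraries. The groups lay far apart with little spread within each. The log2 ratio was 0.35 ± 0.013 (limma, adjusted p = 0.00643), rank 4 by size among the 34 genes called longer. The ratio kept its size when any library was left out, at 0.34 to 0.35. The call did not: the adjusted p was 0.0528 and 0.0521 without the first or second frankincense library and 0.086 and 0.0645 without the first or second vehicle library. It was 0.0239 and 0.0453 without the third library of either group.

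SRSF1 counts fell only slightly. They were 460, 462 and 481 CPM in vehicle and 410, 389 and 396 in frankincense libraries, a log2 fold change of -0.23 ± 0.055 (adjusted p = 0.00204). On the TPM scale, which divides by the longer length, the level was 275 ± 11.0 against 215 ± 11.3. That is a change of -0.36 on log2(TPM + 1) and of -0.61 on median-scaled TPM.

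GENCODE 29 lists 9 SRSF1 transcripts. SRSF1-201 is 1513 bases long with 248 codons, and SRSF1-205 is 3117 bases long with 201 codons. The longer transcript keeps a 200-base intron, chr17:58005601-58005800, that the shorter one splices out. Those 200 bases are only a small part of the difference between 3117 and 1513 bases. The rest of it lies outside this intron. The part of the kept intron in the SRSF1 length result was not tested. SRSF1-204, SRSF1-206 and SRSF1-207 are of the nonsense-mediated decay type, at 1720, 1465 and 758 bases. All are shorter than the estimated SRSF1 length in any library. Their part in the length result was not tested. The authors' annotation is not given in the sources used here, and lengths in GENCODE 29 matched the deposited ones, within 0.5 bases, for 45.2% of 2732 protein-coding genes with a single transcript. Shares of each transcript were therefore not estimated. The last coding stretches of both transcripts are given here because they show what the kept intron changes. They read 5′ to 3′ on the gene's strand, in GRCh38, with the stop codon in capitals.
SRSF1-201, chr17:58005406-58005600: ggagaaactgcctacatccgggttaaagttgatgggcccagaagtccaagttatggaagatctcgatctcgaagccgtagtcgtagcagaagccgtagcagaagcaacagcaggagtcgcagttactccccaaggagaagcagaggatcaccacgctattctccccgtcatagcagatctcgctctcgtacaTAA
SRSF1-205, chr17:58005747-58005800: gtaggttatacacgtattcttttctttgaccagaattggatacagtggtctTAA

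The 195 bases that end SRSF1-201 hold repeated arginine and serine codons, the RS domain that the CLK kinases phosphorylate. In SRSF1-205 the reading frame instead enters the intron and stops after 54 bases.

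Reads of this locus were not assigned to SRSF1 alone. ENSG00000266086 (GRCh38 chromosome 17, 57989038 to 58007246), on the same strand, shares 1890 of the 3340 exonic bases of SRSF1, or 56.6%. All 6 SRSF1 counts were fractional. The overlapping gene was at 105, 95.2 and 85.1 CPM in vehicle and at 50.5, 47.2 and 38.3 in frankincense libraries, a log2 fold change of -1.07 ± 0.11 (edgeR, adjusted p = 4.1e-05). Its own length did not move, with a log2 ratio of -0.0036.

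The overlapping gene took 16.9 ± 1.81% (SD, n = 3) of the counts of both genes in vehicle and 10.2 ± 1.2% in frankincense libraries. An exact two-sided permutation test gave p = 0.1, the smallest that 3 against 3 libraries allow. The CPM of both genes together was 563 ± 5.09 and 444 ± 14.7, with the same exact permutation p of 0.1. The part of this read division in the SRSF1 length result was not tested.

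**Figure D4:**
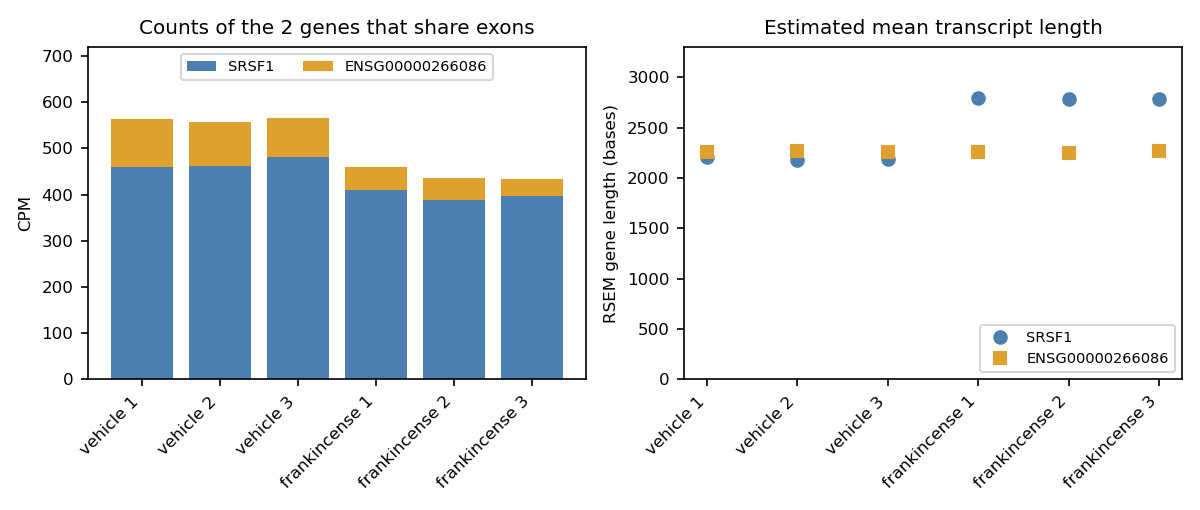
Left, CPM of SRSF1 and of ENSG00000266086 stacked for each library; right, the RSEM gene length of both in bases. The lower stack shrinks little and the upper one by about the 2.1-fold fall of ENSG00000266086, while the SRSF1 length moves from 2182 to 2208 bases up to 2783 to 2790 bases and that of ENSG00000266086 stays level.

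No other member was called on length; at an unadjusted p under 0.05 the limma fit held 8 of the 38 members and 1798 of the 12189 genes. HNRNPH3 had the next largest ratio with separate groups, at 1297, 1328 and 1292 bases in vehicle and 1456, 1380 and 1449 in frankincense libraries. Its log2 ratio was 0.13 ± 0.027 (limma, adjusted p = 0.12). SRSF3, whose poison exon is a known brake on its own level, was at 1422, 1451 and 1447 bases against 1569, 1540 and 1497, a log2 ratio of 0.092 ± 0.022 (adjusted p = 0.157). HNRNPA1 was at 1397, 1395 and 1391 against 1469, 1428 and 1495 bases, at 0.07 ± 0.02 (adjusted p = 0.217).

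Lengths of 14 of the 38 members did not overlap between groups, beside 21.7% of all genes tested. They were SRSF1, SRSF3, SRSF7, SRSF9, SRSF10, CLK1, CLK2, HNRNPA1, HNRNPA3, HNRNPD, HNRNPH1, HNRNPH3, HNRNPM and HNRNPUL2. The median SE of a log2 length ratio was 0.023 for the members and 0.035 for all genes tested. Length changes of 9.34% in HNRNPH3 and 6.61% in SRSF3 were not called. Of the 165 length calls over all genes, 147 were of at least 10%. Smaller changes were thus rarely called, and the lack of a call does not exclude them in other members. A change of transcripts of equal length would not appear in this measure at all.

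Other genes of the splicing pathway were read from lists, and in each the largest called rise and fall with at least 5 CPM in the higher group are named. Of 47 core spliceosome genes, 24 fell and 9 rose, with a median log2 fold change of -0.19. Over all genes tested 31.0% fell and 31.9% rose, with a median of -0.0016. Differences of the lists from these shares were not tested. The largest called changes were in LSM3, an Sm-like protein of the U6 particle, at -0.77 ± 0.086 (adjusted p = 5.3e-06), and in PLRG1 of the PRP19 complex, at 0.62 ± 0.054 (adjusted p = 1.7e-07). The same list had 17 higher and 11 lower on log2(TPM + 1), beside 44.2% and 14.9% of all genes. Of 47 tested other splicing regulators, 21 fell and 12 rose, beside 31.0% and 31.9% of all genes. MBNL1, a muscleblind-like regulator, fell by 0.76 (SE 0.06, adjusted p = 5.8e-08), and ZRANB2 rose by 0.54 (SE 0.062, adjusted p = 3.1e-06). That list had 21 higher and 11 lower on log2(TPM + 1), beside 44.2% and 14.9% of all genes.

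The kinases and importins that act on SR proteins, 9 genes, had 3 higher and 1 lower, beside 31.9% and 31.0% of all genes. The share higher was thus near that of all genes. SRPK2, a cytoplasmic SR protein kinase, rose by 0.28 (SE 0.051, adjusted p = 0.00021), and PRPF4B fell by 0.30 (SE 0.057, adjusted p = 0.00035). On log2(TPM + 1) these 9 genes had 6 higher and none lower, beside 44.2% and 14.9% of all genes. SRPK2 was at 0.47 and PRPF4B at -0.046 there. Of 8 hnRNP proteins under other symbols, 2 fell and none rose, beside 31.0% and 31.9% of all genes. None of them rose at an unadjusted p under 0.05 in edgeR either, or in DESeq2 or limma-voom. RBMX, also called hnRNP G, fell by 0.39 (SE 0.058, adjusted p = 3.4e-05). On log2(TPM + 1) this list of 8 had 5 higher and none lower, beside 44.2% and 14.9% of all genes, so the list's direction depends on the scale. RBMX itself was at -0.087 there.

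The exon junction complex and nonsense-mediated decay genes, 20 in number, had 9 higher and 4 lower and a median of 0.12, beside 31.9% of all genes higher and 31.0% lower; this difference was not tested. MAGOHB, a core protein of the exon junction complex, was at 0.97 ± 0.074 (adjusted p = 4.3e-08) and PNRC2, a decapping cofactor, at -0.37 ± 0.066 (adjusted p = 0.00019). On log2(TPM + 1) 16 of them were called higher and none lower, beside 44.2% and 14.9% of all genes. Of the nuclear RNAs, MALAT1, found in the speckles where SR proteins collect, fell by 0.30 (SE 0.054, adjusted p = 0.0002). NEAT1, the scaffold of paraspeckles, rose by 0.81 (SE 0.069, adjusted p = 1.2e-07). On log2(TPM + 1) MALAT1 was at 0.17 and NEAT1 at 1.04. MALAT1 was not called lower there or on median-scaled TPM, so its direction depends on the scale.

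**Figure D5:**
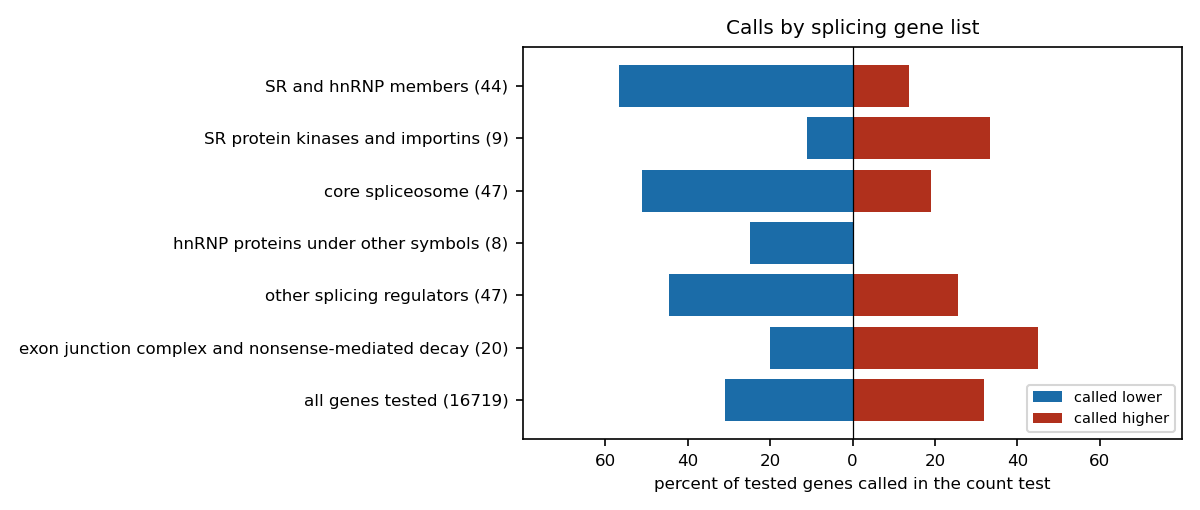
Percent of tested genes called lower (left) and higher (right) in the count test for the SR and hnRNP members, for 5 lists of other splicing genes and for all 16719 genes, with the number tested in brackets. The members have 56.8% lower and 13.6% higher calls, against 31.0% and 31.9% of all genes.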

How the data were processed

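Reads were processed with STAR and RSEM 1.3.1 on GRCh38, per the submitters' processing notes. Of the annotation, read filters and strand setting the sources used here say nothing. A TruSeq RNA library kit was used on 1.5 ug of total RNA, per the labels' protocols. The authors' expected counts are RSEM estimates of reads per gene and can be fractional, per the file headers. The deposited TPM values are scaled to a constant sum per library, and the deposited FPKM values were not used. The deposited length is a gene's mean transcript length, weighted by estimated abundance, per the file headers.

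Expected counts were rounded and tested with edgeR 4.0.16 (R 4.3.3): filterByExpr, TMM, robust quasi-likelihood fit, two-sided, Benjamini-Hochberg over 16719 genes. SE is the log2 fold change over the square root of F. CPM uses TMM-scaled library sizes. Log2 length was fitted with limma 3.58.1 (trend, robust) for genes with at least 1 TPM in each group. DESeq2 1.42.0, limma-voom, TPM scales, other scalings, filters, a replicate block and left-out libraries were alternatives. The edgeR count fit and the limma length fit, with the settings reported, were tested on simulated data. The alternatives were not. Totals ranged from 22615150 to 27615196 counts. Gene positions and transcripts are from GENCODE 29.

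The members and lists were chosen with earlier results of these data known. Library values are given for up to 3 called rises and 3 called falls per role with at least 5 CPM in the higher group, for length calls of at least 10%, and for 13 genes whatever their result; of each list, the largest called rise and fall with at least 5 CPM in the higher group. The promoter of 1 member is not reported here.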

Additional observations from a re-analysis of the deposited data

Results flagged for a closer look

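Symbols that matched the member rule but belong to pseudogenes or antisense genes were outside every comparison above. Of these, 12 passed the count filter, and 4 were called lower and 1 higher, beside 31.0% and 31.9% of all genes tested. The one called higher was HNRNPA1P59, a processed pseudogene, flagged as a signal in data the report does not use. It was at 0.741 ± 0.203 CPM in vehicle and 1.61 ± 0.2 in frankincense libraries (SD, n = 3), with a log2 fold change of 1.10 ± 0.26 (edgeR, adjusted p = 0.00213), so it went against HNRNPA1 itself. All its counts were whole. The level is low, and reads of a processed pseudogene are hard to separate from those of its parent gene.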

How the results depend on the processing

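Median-of-ratios and upper-quartile factors, limma-voom and leaving out mitochondrial genes kept all 31 member calls. DESeq2 kept 28, the fit with no low-count filter 27, library size scaling 26 and median-scaled TPM 26. On log2(TPM + 1) and log2(TPM + 0.1) 18 were kept, with 16 members higher and 12 lower, and the pathway lists moved to 66 higher and 22 lower. The members' median, -0.16 as reported, was -0.081 with library size scaling, -0.20 with upper-quartile factors and at a minimum of 5 CPM, -0.18 on median-scaled TPM, and 0.076 and 0.077 on the TPM scales. Leaving out 1 library gave a median of -0.19 to -0.13. Without the third frankincense library 10 members were called higher (HNRNPAB, HNRNPC, HNRNPDL and CLK3 were added), against 5 to 6 without another.

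Directions that reversed on both TPM scales were, as log2 changes, 0.24 for HNRNPC, 0.061 for HNRNPL, 0.11 for SRSF9 and TRA2B, 0.022 and 0.023 for CLK4, 0.23 for SRSF7, 0.12 for SRSF4 and HNRNPA3, 0.032 for SRSF11, 0.091 and 0.094 for PTBP2, 0.17 for HNRNPR, 0.021 for TRA2A, 0.0065 for HNRNPK, 0.15 for SRSF10 and 0.20 for HNRNPUL2. With library size scaling HNRNPC was at 0.067, SRSF7 at 0.032, HNRNPA3 at 0.048 and HNRNPUL2 at 0.0074. With upper-quartile factors HNRNPU was at -0.0077 and HNRNPUL2-BSCL2 at -0.011, and with no low-count filter HNRNPC was at 0.0067. Without the third frankincense library HNRNPC was at 0.075, SRSF7 at 0.01, HNRNPA3 at 0.011 and HNRNPUL2-BSCL2 at -0.033, which was at -0.018 without the second vehicle library. Leaving out 1 library gave -0.05 to 0.075 for HNRNPC, -0.064 to 0.01 for SRSF7 and -0.045 to 0.011 for HNRNPA3. On median-scaled TPM no member reversed: 38 were the same, 1 was stronger and 5 were weaker. The cause of the reversals was not tested.

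Same-numbered libraries of the groups deviated together with correlations of 0.05, 0.101 and 0.0352, not all above 0.1, so the numbers were not taken as pairs; each library did correlate best with its own number, a hint from the data. A replicate block kept 30 of the 31 count calls. With it, length calls over all genes went from 165 to 0 and member calls from 1 to 0 (SRSF1 adjusted p = 0.136). Leaving out 1 library left 0 to 70 length calls over all genes and 0 to 1 among members: 70 without the third frankincense library, 11 without the third vehicle library and 0 without any other. At an unadjusted p under 0.05, limma counted 1669 genes and 7 members with the block and 1479 to 1815 genes and 5 to 7 members with a library left out, against 1798 and 8 as reported. These fits have fewer residual degrees of freedom. Effective length, linear length, no trend and other TPM minimums kept the SRSF1 call.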
